A study of Mus musculus with 20 samples.

Results

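The genes described here are Vdac1, Vdac2, Vdac3 and the pseudogene Vdac3-ps1, which are the 4 rows of the count table that carry these symbols, of 26722 genes in all. They were chosen because the counts of Vdac3-ps1 had been seen to fall into separate lower and upper ranges across the libraries, and the question is what Vdac3 and the other Vdac genes do in the libraries of the upper range. The cells were C2C12, an established mouse myoblast line, differentiated for 5 days into myotubes and treated for 16 h. The 20 total RNA libraries are 4 biological replicates under each of 5 treatments. All treatments contained an antibody at 7.7 nM. The control received b12, a human IgG4 control antibody. The bivalent group received 13-3B5, an antibody that binds and activates the receptor kinase MuSK with both arms. The agrin group received 0.1 nM agrin, the nerve-derived activator of MuSK signalling, together with b12. The last pair of groups received the same agrin with the monovalent MuSK binders 13-3B5xb12 or 11-3F6xb12, which carry a MuSK arm beside a b12 arm and are labelled as inhibiting. A single cell line was used, so the replicates are cultures of that line.

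VDAC proteins are barrel-shaped channels of the outer mitochondrial membrane. They let ATP, ADP, metabolites and calcium pass between the cytosol and the space between the mitochondrial membranes, and they bind hexokinase and members of the Bcl-2 family. Muscle fibres, with their high ATP turnover, express the Vdac1, Vdac2 and Vdac3 genes together. A pseudogene is a copy of a gene that is annotated as not giving a functional product. Reads from a copy that is nearly identical to its parent can be assigned to either, or to neither, so the counts of both are uncertain when counting is not described in detail.

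All 4 genes were placed by Ensembl identifier on the GRCm38 build with GENCODE release M21. Vdac1 (ENSMUSG00000020402) lies on the forward strand at chr11:52360860-52389397, Vdac2 (ENSMUSG00000021771) on the forward strand at chr14:21825238-21845879 and Vdac3 (ENSMUSG00000008892) on the reverse strand at chr8:22577075-22593813. Vdac3-ps1 (ENSMUSG00000075053) occupies a single exon of 853 bases on the reverse strand at chr13:18030741-18031593. GENCODE gives it the class unprocessed pseudogene, although it holds no intron where the Vdac3 coding sequence has 7 exon junctions. It overlaps 0 other annotated genes. Its nearest neighbours are the lincRNA Gm48799, 22397 bases away, and the processed pseudogene Gm6575, 6968 bases away, and neither was analysed here. The nearest neighbour with counts was Yae1d1, a gene 37392 bases away, with 369 to 516 counts (median 442.5) in the libraries of the upper range and 334 to 512 (median 407.5) in the others. These counts are not corrected for depth, and the libraries with the lowest total counts are in the lower range.

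Along the 852 bases of the Vdac3 coding sequence the pseudogene was identical at 848 positions, or 99.53%, with no gap. By comparison, Vdac1 and Vdac2 were identical at 70.77% of aligned coding bases, Vdac1 and Vdac3 at 65.96%, and Vdac2 and Vdac3 at 71.48%. Counted from 1 at the A of the start codon, with the base of Vdac3 first and that of the pseudogene second, the 4 differences were T21C, T237C, G404A and T445G. The first pair is silent, and G404A and T445G change the encoded residue. The pseudogene held 0 internal stop codons and ended in a stop codon. The stretches that hold these differences are shown because they are where the sequence of a read can tell the genes apart. They are written in the sense of the transcript, 5′ to 3′, with the differing base in capitals.
Vdac3, coding positions 1 to 41: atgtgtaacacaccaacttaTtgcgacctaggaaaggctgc
Vdac3-ps1, chr13:18031553-18031593: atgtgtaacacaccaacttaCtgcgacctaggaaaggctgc
Vdac3, coding positions 217 to 257: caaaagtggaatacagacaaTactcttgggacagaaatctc
Vdac3-ps1, chr13:18031337-18031377: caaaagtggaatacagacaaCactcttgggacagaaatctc
Vdac3, coding positions 384 to 424: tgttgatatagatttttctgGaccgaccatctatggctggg
Vdac3-ps1, chr13:18031170-18031210: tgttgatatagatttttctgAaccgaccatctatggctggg
Vdac3, coding positions 425 to 465: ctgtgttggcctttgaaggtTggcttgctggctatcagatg
Vdac3-ps1, chr13:18031129-18031169: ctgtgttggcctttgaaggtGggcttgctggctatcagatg

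All 4 differences lie in the first 445 bases, and the last 407 bases of the pseudogene, from position 446 to 852, are identical to Vdac3. A fragment of 150 bases, the length of 1 sequenced end, can start at 704 places in the pseudogene. At 342 of these, or 48.6%, it is letter for letter the same as Vdac3, and at 362, or 51.4%, it holds at least 1 difference. Of the 342 identical windows, 340 cross an exon junction of Vdac3 and 2 lie within a single Vdac3 exon. On the genome such a fragment therefore matches the pseudogene in 1 piece and Vdac3 in spliced pieces.

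**Figure D1:**
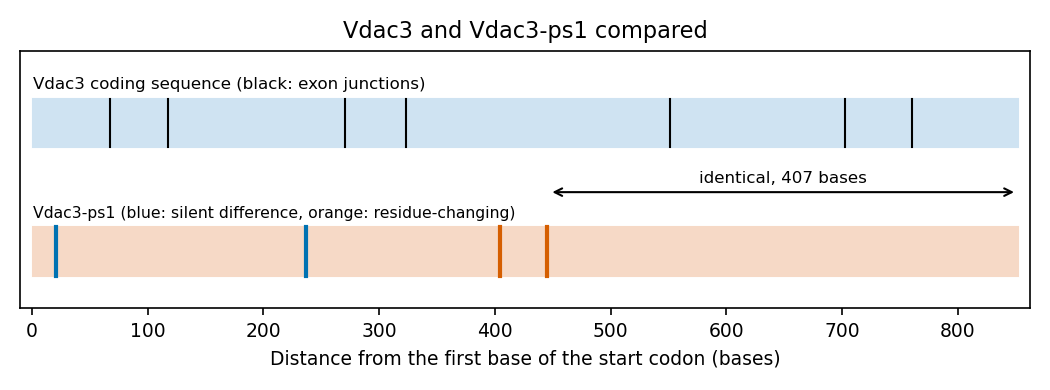
The Vdac3 coding sequence with its 7 exon junctions (black lines) above Vdac3-ps1 with its 4 differences from it (blue, silent; orange, residue-changing), against distance from the first base of the start codon in bases. The arrow marks the identical stretch of 407 bases at the 3′ end, which holds 3 of the junctions.

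Other copies share less. Of the 823 stretches of 31 bases in Vdac3-ps1, 709 also occur in Vdac3 transcripts and 393 in the processed pseudogene Gm7591. Gm7591 had 0 to 12 counts per library and was at 0 in 6 libraries. Its median was 1.5 counts in the libraries of the upper range of Vdac3-ps1 and 1 in the others. It did not pass the filter on low counts, and so few counts cannot show whether it follows the separation. Pseudogenes that share such stretches with Vdac1 and have counts, Gm16102, Gm15502 and Gm13758, reached 4, 7 and 7 counts, and Gm7832, which shares them with Vdac2, reached 3.

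The libraries held between 18424881 and 23343903 counts each, and 4 of 4 Vdac genes passed the filter on low counts that left 14605 genes for testing. Levels are given as CPM, which expresses a count relative to its library's depth, with depth corrected by the trimmed mean of M-values. The myotube identity of the cells was checked with 9 markers, all 9 of them detected, whose summed level was 7780 to 9424 CPM. Markers of dividing myoblasts summed to 93.8 to 178 CPM and fibroblast markers to 701 to 1024 CPM, of which Dcn made up 671 to 998 CPM, while Thy1 was at 0 in 16 libraries. In the libraries of the upper range the 3 sums were 7780 to 9424, 95.2 to 153 and 827 to 916 CPM, against 7832 to 9255, 93.8 to 178 and 701 to 1024 CPM in the others. A set of 3 libraries stands apart from the rest of their treatments. The agrin with 13-3B5xb12 replicate 1 and control replicate 2 libraries had the widest median distance per gene from the other replicates, 0.203 and 0.216 on the log2 scale against at most 0.161 in the other 18. Agrin replicate 3 held liver transcripts, with liver markers (5 of 6 in the table) at 9.06 CPM against at most 0.254 CPM elsewhere. All 3 belong to the lower range of Vdac3-ps1, so each comparison of the ranges rests in part on them.

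Vdac3-ps1 had between 8 and 291 counts per library. Control replicates 1 to 4 had 291, 15, 8 and 184 counts, which are 13.9, 0.696, 0.409 and 8.32 CPM. Bivalent 13-3B5 replicates 1 to 4 had 16, 248, 285 and 246 counts (0.768, 11.3, 12.5 and 10.5 CPM). Control was thus split evenly, whereas 3 of the 4 bivalent libraries were high. Agrin replicates 1 to 4 had 233, 16, 17 and 25 counts (10.6, 0.751, 0.716 and 1.04 CPM). Agrin with 13-3B5xb12 had 21, 12, 244 and 241 counts (0.959, 0.645, 10.3 and 10.5 CPM). A single agrin library was high, and under 13-3B5xb12 replicates 3 and 4 were high. Agrin with 11-3F6xb12 had 30, 21, 20 and 20 counts (1.45, 1.04, 0.910 and 0.836 CPM), all of them low.

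The widest gap between neighbouring libraries, in log2 CPM, was used to separate the ranges. It put 8 libraries in the upper range, at 184 to 291 counts (median 245), and 12 in the lower range, at 8 to 30 counts (median 18.5). The library just above the gap was control replicate 4, with 184 counts, and the one just below was agrin with 11-3F6xb12 replicate 1, with 30. No library lay between them, and their CPM values differed 5.75-fold. The medians of the ranges, 10.6 and 0.802 CPM, differed 13.2-fold. All lower-range values lay above the limit of 3 counts that a count of 0 allows. These values chose the ranges and are a description without a test.

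**Figure D2:**
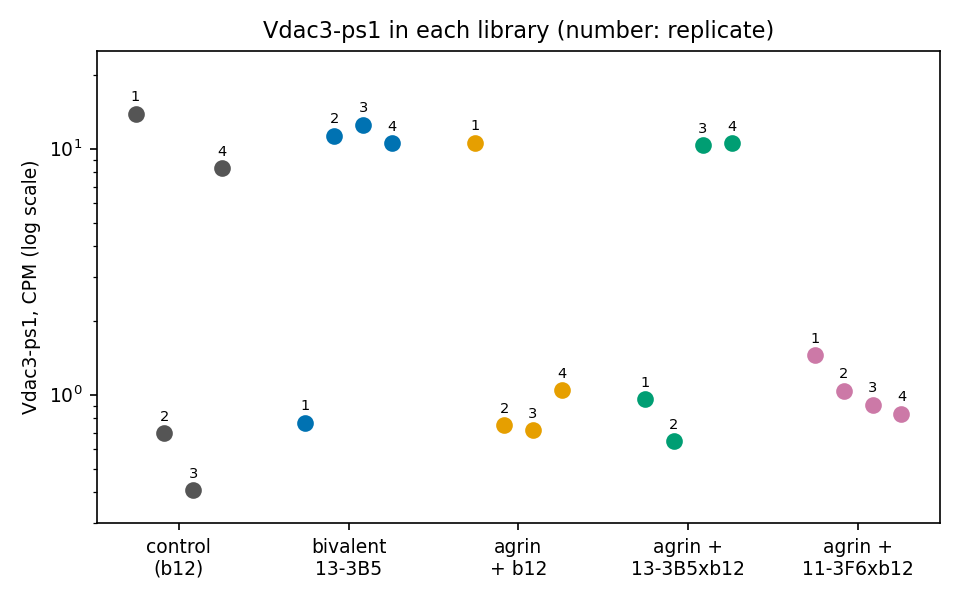
Vdac3-ps1 in CPM on a log axis for every library, grouped by treatment, with the replicate number over each point. The 8 upper points lie at 8.32 CPM and above, the 12 lower points at 1.45 CPM and below, and both kinds occur in 4 of the 5 treatments.

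Neither label of the libraries matched the ranges. By treatment, 2 of 4 control, 3 of 4 bivalent, 1 of 4 agrin, 2 of 4 agrin with 13-3B5xb12 and 0 of 4 agrin with 11-3F6xb12 libraries were in the upper range. By replicate number, the upper range held 2, 1, 2 and 3 of the 5 libraries numbered 1, 2, 3 and 4. Total counts were 21799878 to 22674974 in the upper range, inside the span of the lower range. The mitochondrially encoded transcripts made up 29.6 to 34.7% of counts (median 31.8%) in the upper and 27.9 to 39.1% (median 32.8%) in the lower range. Genes with counts numbered 17318 to 18138 (median 17924) and 16261 to 18259 (median 17895). A library's departure from the other replicates of its treatment was also set against transcript length over genes. The rank correlation was -0.230 to 0.046 in the upper and -0.126 to 0.239 in the lower range. The 3 libraries that stand apart had the highest values, 0.239, 0.229 and 0.174. The part of any of these measures in the separation, or in the Vdac levels, was not tested.

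Vdac3 showed no gap like that of its pseudogene, and its values overlapped between the ranges. In the 8 libraries of the upper range Vdac3 had 171 to 201 CPM (median 183), and in the 12 libraries of the lower range 159 to 212 CPM (median 189.6). The span of the upper range lay inside that of the lower range only because of the 3 libraries that stand apart, which hold the 3 lowest Vdac3 values. Without them the lower range spanned 177 to 212 CPM (median 196, 9 libraries), and 2 of 8 upper-range against 6 of 9 lower-range libraries lay above the median of the 17. The spans still overlapped, and the medians lay further apart than over all 20 libraries. Among all 20 libraries sorted by Vdac3, the 8 of the upper range took places 4, 7, 9, 12, 13, 14, 16 and 17, and 3 of the 8 lay above the median of all libraries, compared with 7 of the 12. Because the ranges were set by measured counts, the values are given without a test.

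By library, control replicates 1 to 4 had 201, 159, 186 and 189 CPM of Vdac3, of which the first and the last have the high pseudogene. Bivalent 13-3B5 had 207, 194, 182 and 176 CPM, and here the low-pseudogene library, replicate 1, had the most Vdac3. Agrin had 185, 212, 169.9 and 196 CPM, with the high-pseudogene replicate 1 in the middle. Agrin with 13-3B5xb12 had 169, 185, 171 and 182 CPM, with no split between replicates 1 and 2 and replicates 3 and 4. Agrin with 11-3F6xb12 had 208, 198, 193 and 177 CPM. The high libraries were above both low ones in the control treatment only, and between or below them in the other 3 treatments that hold both kinds. The low libraries beneath the high ones, agrin replicate 3 (169.9 CPM) and 13-3B5xb12 replicate 1 (169 CPM), are among the 3 libraries that stand apart. Without those 3, the high libraries were still above the low one in control. They were below every low library in the other 3 treatments. This order was not tested.

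Measured as a share of the counts of both genes together, Vdac3-ps1 was 4.21 to 6.45% (median 5.58%) in the upper and 0.219 to 0.691% (median 0.453%) in the lower range. The highest share, 6.45% in control replicate 1, had a Wilson 95% interval of 5.77 to 7.21%, and the lowest of the upper range, 4.21% in control replicate 4, one of 3.66 to 4.85%. In the lower range the highest, in agrin with 11-3F6xb12 replicate 1, had an interval of 0.484 to 0.984%. These intervals cover counting error only, since read pairs without molecular identifiers are not independent molecules. The upper-range median of the pseudogene, 10.6 CPM, is of the size of the SD of Vdac3 within treatments, 7.83 to 17.9 CPM, so that a difference of that many CPM in Vdac3 is not detectable between single libraries. The sum of both genes, 182 to 215 CPM (median 195) in the upper and 159 to 213 CPM (median 190.3) in the lower range, overlapped between the ranges as well, and the lower-range median was 197 CPM without the 3 libraries that stand apart. Over all libraries the coefficient of variation was 5.21% for Vdac1, 5.69% for Vdac2, 7.67% for Vdac3 and 105.9% for Vdac3-ps1.

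Vdac1, the most studied of the channels and a partner of hexokinase, also overlapped between the ranges. It had 134.6 to 153.6 CPM (median 142.8) in the upper and 129.9 to 154.2 CPM (median 138.8) in the lower range. Control replicates 1 to 4 had 146, 135, 135 and 154 CPM. In that treatment both high-pseudogene libraries, 1 and 4, were above both low ones. Bivalent 13-3B5 had 154, 152, 135 and 144 CPM, and agrin had 139, 152, 144 and 134 CPM, with the order turned or mixed. Agrin with 13-3B5xb12 had 142, 148, 141 and 142 CPM and agrin with 11-3F6xb12 had 142, 136, 134 and 129.9 CPM. Of the 8 upper-range libraries 4 lay above the median of all libraries, and of the 12 lower-range libraries 6 did. Without the 3 libraries that stand apart the lower-range median was 135.7 CPM.

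Vdac2, whose protein binds the cell-death effector Bak, had 258 to 281 CPM (median 269) in the upper and 230.0 to 279.95 CPM (median 266) in the lower range. Control replicates 1 to 4 had 279.8, 230.0, 279.95 and 281 CPM, of which replicate 2 alone was low. Bivalent 13-3B5 had 267, 276, 273 and 264 CPM. Agrin had 265, 266, 238 and 245 CPM and agrin with 13-3B5xb12 had 240.4, 268, 265 and 258 CPM. The 3 lowest Vdac2 values, 230.0, 238 and 240.4 CPM, belong to the 3 libraries named above that stand apart. Agrin with 11-3F6xb12 had 277, 274, 266 and 253 CPM. As for Vdac1, 4 of the 8 and 6 of the 12 libraries lay above the median of all. Without the 3 libraries the lower range spanned 244.5 to 279.95 CPM (median 267).

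**Figure D3:**
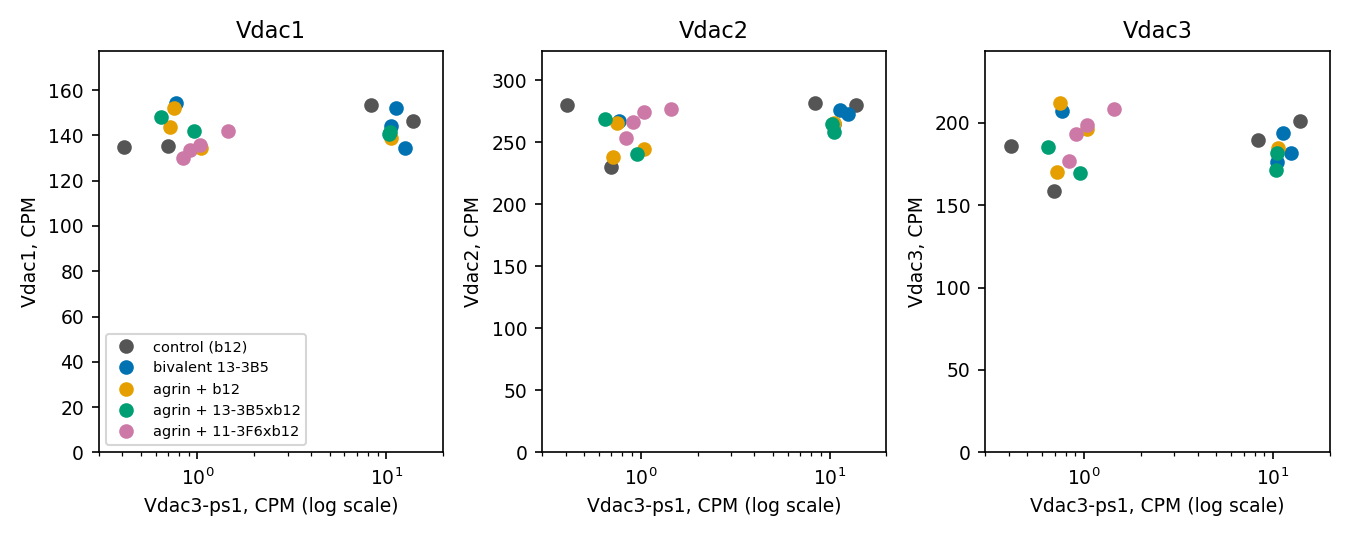
Vdac1, Vdac2 and Vdac3 in CPM (linear axes from 0) against Vdac3-ps1 in CPM (log axis), 1 point per library, coloured by treatment. The left and right clouds overlap in height in each panel, with medians of 138.8 and 142.8 CPM for Vdac1, 266 and 269 CPM for Vdac2 and 189.6 and 183 CPM for Vdac3.

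Ratios within a library remove the scaling between libraries. The log2 ratio of Vdac3 to Vdac1 was 0.28 to 0.46 (median 0.35) in the upper and 0.23 to 0.55 (median 0.45) in the lower range. That of Vdac3 to Vdac2 was -0.63 to -0.48 (median -0.55) and -0.59 to -0.32 (median -0.48). For both ratios 2 of the 8 upper-range libraries and 8 of the 12 lower-range libraries lay above the median of all libraries. The spans overlapped. Without the 3 libraries that stand apart, 1 of 8 and 7 of 9 lay above the median for the ratio to Vdac1 (lower-range median 0.48). For the ratio to Vdac2, 2 of 8 and 6 of 9 did (lower-range median -0.46). All 4 agrin with 11-3F6xb12 libraries are in the lower range, so the ranges also differ in treatment. Their mean log2 ratio of Vdac3 to Vdac1 was 0.52, against 0.31 to 0.42 in the other treatments. The means of control, agrin and agrin with 13-3B5xb12 each include 1 library that stands apart, at 0.23, 0.24 and 0.26. The lower-range libraries of other treatments that do not stand apart had 0.32 to 0.55. The part of treatment in this ratio was not tested. Within each treatment that holds both kinds of library, the order by the ratio to Vdac1 was mixed. By the ratio to Vdac2 it was mixed in control and with 13-3B5xb12, whereas the upper-range libraries were lowest in bivalent 13-3B5 and agrin. Without the 3 libraries that stand apart, the upper-range libraries were lowest by the ratio to Vdac1 in control and agrin. That order stayed mixed in bivalent 13-3B5 and with 13-3B5xb12. By the ratio to Vdac2 the upper-range libraries then became highest in control, and the other treatments kept their order. With the pseudogene counts added to Vdac3, the log2 ratio to Vdac1 was 0.36 to 0.55 (median 0.44) in the upper and 0.24 to 0.56 (median 0.46) in the lower range. Without the 3 libraries the lower-range median of this ratio was 0.48, and 3 of 8 and 5 of 9 lay above the median. The log2 ratio of Vdac2 to Vdac1, which does not involve Vdac3, was 0.86 to 1.02 (median 0.89) and 0.73 to 1.05 (median 0.86), and the lower-range median became 0.96 without the 3 libraries. These differences of medians were not tested.

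Within a range the pseudogene's values are few and, in the lower range, close to their counting error, so their relation to the other genes is given as a description without a test. Over the 8 upper-range libraries Pearson's r of Vdac3-ps1 in log2 CPM was 0.360 with Vdac3, -0.376 with Vdac1 and 0.108 with Vdac2. Over the 12 lower-range libraries it was 0.328, -0.0718 and -0.0224. These values moved when the 2 libraries farthest from the median of Vdac3-ps1 were left out. Without control replicates 1 and 4 the upper-range values were 0.392 with Vdac3, -0.281 with Vdac1 and 0.718 with Vdac2. Without control replicate 3 and 11-3F6xb12 replicate 1 the lower-range values were 0.252, -0.512 and 0.102.

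The size of the separation was set beside that of all genes. For each of the 14605 genes tested, the widest gap between neighbouring libraries with at least 3 libraries on each side was taken in log2 CPM. The median gap was 0.113 and the 99th percentile was 0.993. Vdac3-ps1, which was chosen for this separation, had 2.45, the second widest, and its place is a description. Only 2 genes had a gap of at least 2, the other being Gm14150 with 2.59, and the third was Syp with 1.87, a gene with 0 to 26 counts. Among the 11003 genes with a mean count of at least 50, 3 had a gap of at least 1, namely Gm14150, Vdac3-ps1 and Lcn2 (1.01). With a prior count of 0.5 in place of 2, which spreads out genes with counts near 0, the pseudogene took place 62 with a gap of 2.50. The protein-coding Vdac genes had gaps of 0.04 (Vdac1), 0.05 (Vdac2) and 0.04 (Vdac3), at places 13709, 12669 and 13504.

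**Figure D4:**
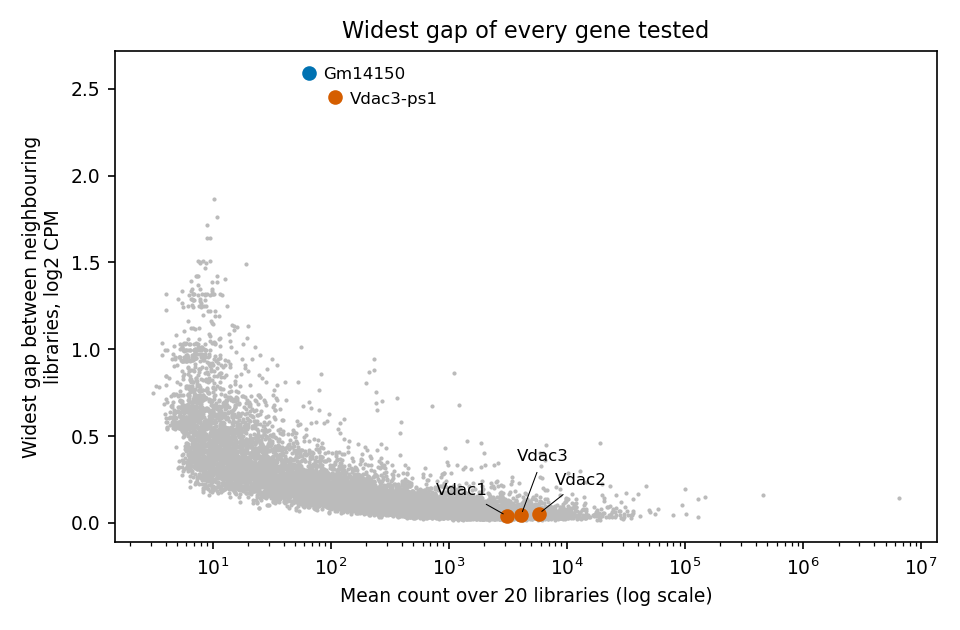
Widest gap between neighbouring libraries in log2 CPM for each of the 14605 genes tested, against the mean count over 20 libraries on a log axis. Vdac3-ps1 and Gm14150 lie above 2, and Vdac1, Vdac2 and Vdac3 lie at the bottom of the cloud at 0.04 to 0.05.

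Gm14150 is annotated as a processed pseudogene, on chr2:151458956-151460309, and 959 of its 1324 stretches of 31 bases occur in transcripts of Tuba1b, an alpha-tubulin gene. It had 85 to 191 counts in 11 libraries and 0 to 12 in the other 9. The libraries in which it was high were not those of Vdac3-ps1. Of the 8 libraries with the high Vdac3-ps1, 6 also had the high Gm14150, and the other 2, agrin replicate 1 and bivalent 13-3B5 replicate 2, had 5 and 12 counts. Conversely 5 of the 11 libraries with the high Gm14150 had the low Vdac3-ps1. In agrin with 11-3F6xb12 replicate 1 Gm14150 had 99 counts and Vdac3-ps1 had 30.

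To compare levels between genes, CPM was divided by the length of 1 annotated transcript per gene, 2022 bases for Vdac1, 1954 for Vdac2, 1354 for Vdac3 and 853 for Vdac3-ps1. The medians over all libraries were 137 CPM per kilobase for Vdac3, 136 for Vdac2, 70.1 for Vdac1 and 1.22 for Vdac3-ps1. Vdac3 and Vdac2 did not differ beyond their spread, with a ratio of 0.933 to 1.16 across libraries. Vdac2 was 1.71 to 2.15 times Vdac1 in every library. The order depends on the length used: with all annotated exons of a gene merged, the medians were 55.8 for Vdac2, 54.1 for Vdac1 and 34.3 for Vdac3. The pseudogene was last under both lengths.

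Whether the treatments moved the Vdac genes was tested with edgeR's quasi-likelihood test, with Benjamini-Hochberg adjustment over all 14605 genes. Of the 4 genes, 0 passed an adjusted p of 0.05 in agrin against control, in bivalent 13-3B5 against control, in either monovalent binder against agrin, and in the test of any difference among treatments. Over all genes 0 were called in each of these 5 tests, or 0%, and with the replicate block 2 were called in 11-3F6xb12 against agrin and 2 in any treatment, none of them a Vdac gene. Without the block, 2.85, 2.77, 3.83, 3.33 and 2.25% had an unadjusted p under 0.05. None of the 4 Vdac genes did so. The comparisons that share the agrin or the control libraries are not independent of each other.

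Vdac1 averaged 142.5 ± 9.12 CPM (SD, n = 4) in control, 146.3 ± 8.98 in bivalent 13-3B5, 142.3 ± 7.66 in agrin, 143.1 ± 3.37 with 13-3B5xb12 and 135.3 ± 4.99 with 11-3F6xb12. Its largest log2 fold change was -0.07 (SE 0.07), for 11-3F6xb12 against agrin (edgeR adjusted p = 0.999988). Vdac2 averaged 268 ± 25.2, 270.2 ± 5.35, 253 ± 14.3, 258 ± 12.4 and 268 ± 10.5 CPM in the same order. Its log2 fold changes were -0.08 (SE 0.07) for agrin against control and 0.08 (SE 0.07) for 11-3F6xb12 against agrin. Vdac3 averaged 184 ± 17.9, 189.6 ± 13.8, 191 ± 17.8, 177 ± 7.83 and 194 ± 13.1 CPM, and its largest log2 fold change was -0.11 (SE 0.08), for 13-3B5xb12 against agrin (edgeR adjusted p = 0.998915). Other log2 fold changes of the 3 genes lay between -0.00 and 0.05, with SE of 0.07 or 0.08, and several changed sign when 1 library was left out.

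Vdac3-ps1 averaged 5.82 ± 6.50 CPM in control, 8.77 ± 5.40 in bivalent 13-3B5, 3.27 ± 4.88 in agrin, 5.61 ± 5.56 with 13-3B5xb12 and 1.06 ± 0.273 with 11-3F6xb12 (SD, n = 4). In the 4 treatments with libraries of both ranges these means describe no single library. The log2 fold changes were -0.84 (SE 1.16) for agrin and 0.59 (SE 1.12) for bivalent 13-3B5 against control. Against agrin they were 0.80 (SE 1.16) for 13-3B5xb12 and -1.62 (SE 1.30) for 11-3F6xb12, the last with an edgeR adjusted p = 0.999988. The sign of that value rests on 1 library: without agrin replicate 1 the log2 fold change was 0.33, and without control replicate 1 that of agrin against control was 0.04. The other pair of values also moved: 13-3B5xb12 against agrin ranged from 0.31 (without 13-3B5xb12 replicate 4) to 2.75 (without agrin replicate 1), and was 1.20 with the replicate block. Bivalent 13-3B5 against control ranged from 0.21 (without control replicate 3) to 1.47 (without control replicate 1), and was 1.34 with the block. With no filter on low counts the pseudogene was called in 11-3F6xb12 against agrin (log2 fold change -1.63, edgeR adjusted p = 5.09e-05), among 13 genes called.

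**Figure D5:**
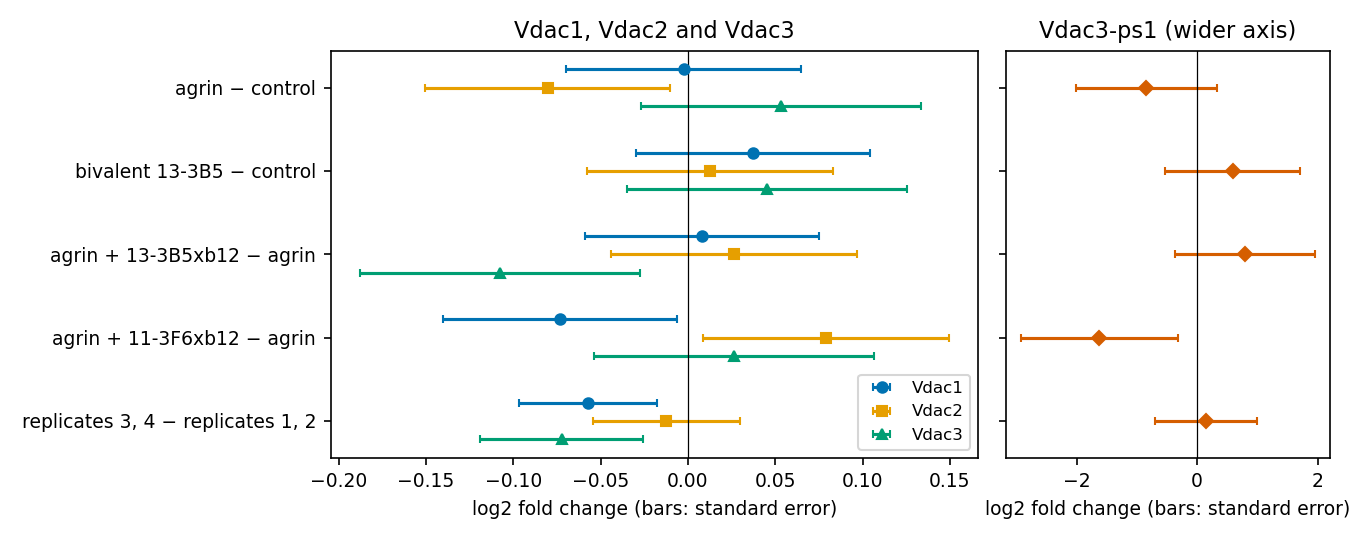
Log2 fold changes with standard errors for Vdac1, Vdac2 and Vdac3 (left) and for Vdac3-ps1 on a wider axis (right) in the 4 treatment comparisons and between replicate numbers. The protein-coding genes stay between -0.11 and 0.08, whereas the pseudogene runs from -1.62 to 0.80 with standard errors of 0.85 to 1.30.

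The replicate numbers in the labels were the other way to divide the libraries, and the labels do not say what a number stands for. In a fit of treatment plus replicate number, 1850 of 14605 genes, or 12.7%, differed between replicates 3 and 4 and replicates 1 and 2 (838 higher, or 5.74%, and 1012 lower, or 6.93%), and 1050, or 7.19%, differed by number in any way. Unadjusted p-values were under 0.05 for 24.3 and 17.3% of genes. Of the 4 genes 0 were called in either test, and 0 had an unadjusted p under 0.05. The log2 differences of replicates 3 and 4 from replicates 1 and 2 were -0.06 (SE 0.04) for Vdac1, -0.01 (SE 0.04) for Vdac2, -0.07 (SE 0.05) for Vdac3 and 0.15 (SE 0.85) for Vdac3-ps1, with edgeR adjusted p-values of 0.415, 0.912, 0.377 and 0.948. Without the 3 libraries that stand apart, Vdac3 was called lower in replicates 3 and 4, by a log2 difference of -0.10 (edgeR adjusted p = 0.0436). It was then among 2530 genes called, more than the 1850 of the main fit, so the call is not particular to Vdac3. With no filter on low counts Vdac3-ps1 was called in the test of any replicate number, among 1337 genes, against 1050 in the main fit.

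Over all 20 libraries the log2 CPM values of Vdac2 and Vdac3 correlated with r = 0.646 (permutation p = 0.00274, two-sided, adjusted p = 0.0247 over 9 relations) and rho = 0.636 (p = 0.00336, adjusted p = 0.0302). The relation was r = 0.860 within replicates 1 and 2 and r = 0.270 within replicates 3 and 4 (n = 10 each), and 0.732 after treatment means were removed. Without agrin replicate 3 and control replicate 2, both among the libraries that stand apart, r was 0.418. Without all 3 of those libraries, which hold the 3 lowest values of both genes, r was 0.242 (n = 17, permutation p = 0.353; rho = 0.409, p = 0.103), so the relation rests on them. Vdac1 and Vdac2 gave r = 0.321 (permutation p = 0.165, adjusted p = 0.495; rho = 0.305, p = 0.190, adjusted p = 0.475), and r = 0.288 without the 2 farthest libraries, 0.432 within replicates 1 and 2 and 0.198 within replicates 3 and 4. Vdac1 and Vdac3 gave r = 0.380 (permutation p = 0.0966, adjusted p = 0.435; rho = 0.298, p = 0.201, adjusted p = 0.475), r = 0.257 without the 2 farthest, and 0.566 and -0.183 within the pairs of replicate numbers.

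Genes whose pattern over the 20 libraries was most like that of each Vdac gene were taken by Pearson's r of log2 CPM, as a description, since the libraries share treatments, replicate numbers and the departures named above. For Vdac3 the 3 highest were the proteasome subunit genes Psma4 (0.891), Psmd6 (0.887) and Psmc6 (0.885). For Vdac2 they were Chmp5 (0.889), Ociad1 (0.866) and Xpa (0.846), and for Vdac1 Ngrn (0.788), Ndufv1 (0.781), a subunit gene of respiratory complex I, and Polr3gl (0.745). For Vdac3-ps1, where r mostly reflects which libraries are in the upper range, they were Oaz1 (0.788), 9430060I03Rik (0.718), Mterf4 (0.711), Hras (0.700) and Pdf (0.684), with Nmd3 (-0.758) and Slc43a2 (-0.757) at the other end. In counts, which unlike r are not corrected for depth, even the first of these overlapped between the ranges. Oaz1, which encodes the inhibitor of ornithine decarboxylase, had 4400 to 4789 counts (median 4638.5) in the upper and 3401 to 4709 (median 4059.5) in the lower range. Ranked in this way against the pseudogene, Vdac2, Vdac1 and Vdac3 took places 759, 2988 and 8579.

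The 5 lists of genes that work with the channels examined beside them were VDAC partners (13 of 14 genes tested), protein import through the outer membrane (11 of 12), the mitochondrial calcium uniporter (7 of 7), the Bcl-2 family (13 of 14) and mitochondrial fission and fusion (8 of 8). In the 4 treatment comparisons 0 of these 52 genes were called. In each comparison the pair of list genes with the smallest p is named, and their edgeR adjusted p-values were 0.998915 to 0.999988. In agrin against control they were the actin-severing gelsolin gene Gsn (log2 fold change 0.14, SE 0.07) and the phosphate carrier gene Slc25a3 (-0.13, SE 0.07). In bivalent 13-3B5 against control they were the pro-death genes Bid (0.22, SE 0.09) and Bcl2l11 (-0.48, SE 0.21). Against agrin they were the outer membrane genes Mtx2 (-0.18, SE 0.10) and Mtx1 (0.27, SE 0.16) with 13-3B5xb12, and Slc25a3 (0.14, SE 0.07) and the anti-death gene Bcl2 (0.21, SE 0.11) with 11-3F6xb12.

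Between replicates 3 and 4 and replicates 1 and 2, 12 of the 52 genes were called, 5 higher and 7 lower, beside 12.7% of all genes (5.74% higher and 6.93% lower), with a median log2 difference of -0.02 against 0.01 over all genes. Of the VDAC partners 3 were higher and 2 lower. The calcium release channel Itpr2 (0.41, SE 0.06), the adenine nucleotide carrier Slc25a5 (0.21, SE 0.04) and the mitochondrial chaperone Hspa9 (0.14, SE 0.04) were higher, with edgeR adjusted p-values of 9.92e-06, 0.000503 and 0.0108. The mitochondrial creatine kinase Ckmt2 (-1.55, SE 0.24) and hexokinase Hk2 (-0.39, SE 0.07) were lower, with 2.65e-05 and 0.000587.

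Of the calcium uniporter 3 of 7 were lower and 0 higher, among them the pore gene Mcu (-0.28, edgeR adjusted p = 9.05e-05) and the gatekeeper gene Micu2 (-0.21, adjusted p = 0.00151), and the median of the list was -0.12. The import pore gene Tomm40 (0.22, edgeR adjusted p = 0.0157) and the death effector Bax (0.22, adjusted p = 0.0310) were higher. Pmaip1 of the Bcl-2 family (-0.33, adjusted p = 0.00583) and Mief2 of the fission and fusion list (-0.23, adjusted p = 0.0111) were lower in edgeR's test. In the test of any replicate number 7 of the 52 were called, beside 7.19% of all genes, among them Itpr2, Ckmt2, Mcu, Hk2, Slc25a5 and Micu2.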

How the data were processed

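Gene counts of 20 libraries were deposited by the authors as whole numbers per gene, without normalization, as the table itself shows. Per the labels' protocols, ribosomal RNA was removed with Ribo-Zero, the TruSeq Stranded Total RNA kit was used for the libraries, and a NovaSeq read paired ends of 150 bases. Per the submitters' processing notes, Trim Galore 0.6.6, cutadapt 2.10, STAR 2.7.6a, HTSeq 0.12.4, DESeq2 1.32.0 and GRCm38 were used. The strand setting, the annotation release and the handling of reads that match more than 1 place are not given in the sources used here, and they bear directly on how reads are divided between Vdac3 and Vdac3-ps1. Of the table's gene identifiers, 26667 were found in GENCODE M21 and 55 were not, and 532 genes had 0 counts in every library.

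The counts were tested with edgeR 4.0.16 under R 4.3.3: filterByExpr (minimum count 10, minimum total 15), TMM scaling, a robust quasi-likelihood fit of all 20 libraries with treatment as factor, two-sided tests and Benjamini-Hochberg adjustment over 14605 genes with a threshold of 0.05. A second fit added the replicate number. Standard errors are log2 fold changes over the root of F, and log2 CPM used a prior count of 2. Correlations used 100000 permutations, adjusted over 9 relations that include 6 of Vdac3-ps1 within a range. The fits were also run on simulated counts with known changes. These counts were drawn around a single mean per group, so they do not bear on a gene with separate ranges such as Vdac3-ps1. Sequences were read from GENCODE M21 transcripts.

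The members and lists were chosen with earlier results of these data known. The 4 Vdac genes were to be named whatever their values, list genes with an adjusted p under 0.05 up to 10 per comparison or otherwise the 2 with the smallest p, and the genes most like each Vdac gene by r. Tomm40, Bax, Gm14150, Syp, Lcn2, Tuba1b, Yae1d1 and the copies of Vdac genes were named after their values were seen. The values of 1 list gene are not reported here.

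Groups and replicate numbers come from the titles, where each treatment has replicates 1 to 4. Deviations from the treatment means of same-numbered libraries correlated at 0.011 to 0.323 over 16 pairs, 15 of them above 0.1. The lowest belongs to number 2 of agrin and control, so the numbers count as pairs in the other 3 comparisons only. That pair includes control replicate 2, which stands apart, and the other numbers of agrin and control gave 0.200 to 0.246. Treatment fold changes and p-values come from the fit without the replicate number unless the block is named. Alternatives were the replicate block, DESeq2 1.42.0 size factors and test, no filter or a mean count of at least 10, only the 2 groups compared, removal of 2 genes that hold over 1% of counts, the pseudogene added to Vdac3, and each library left out. Those chosen after seeing the data are the 3 libraries left out (in fits, levels and correlations), the block with DESeq2's test and merged exon length.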

Additional observations from a re-analysis of the deposited data

Results flagged for a closer look

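The highest or lowest of 4 libraries lay so far from the others that its gap, as a share of the whole range, passed Dixon's 95% limit in 4 of 25 groups, which are the 4 genes and the sum of Vdac3 and Vdac3-ps1 in 5 treatments. Chance flags about 1 in 20 groups, a rate that does not bear on the pseudogene, which was chosen for its separate ranges. Its flags lie in the treatments with 3 libraries in one range and 1 in the other. They restate that split and are a description, although they are part of the 4. In bivalent 13-3B5 replicate 1 Vdac3-ps1 stood at 0.768 CPM, with the next library at 10.5 CPM. It had 10.6 CPM in agrin replicate 1, and the next had 1.04 CPM. Vdac2 had 230.0 CPM in control replicate 2, 1 of the libraries that stand apart, and the other 3 had 279.8 to 281 CPM. Vdac1 had 148.11 CPM in replicate 2 of agrin with 13-3B5xb12, and the others had 140.8 to 141.9 CPM. The part of depth, RNA quality or culture in these values was not tested.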

How the results depend on the processing

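Of 109 recounts of called Vdac genes, 105 were 0. With no filter on low counts 1 gene, Vdac3-ps1, was called in 11-3F6xb12 against agrin, in any treatment (among 50 genes) and in any replicate number. Without the 3 libraries that stand apart 1, Vdac3, was called between replicate numbers. The replicate block gave 0 called in all 4 treatment comparisons and in any treatment, so it changed no call of a Vdac gene, while over all genes it called 2 in 11-3F6xb12 against agrin and 2 in any treatment (3 and 9 with DESeq2's test), and the log2 fold change of Vdac3-ps1 in 11-3F6xb12 against agrin was -1.25 with it.

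Of 331 recomputed log2 fold changes 21 changed sign, 17 of them on leaving out 1 library or number, and the cause was not tested. Leaving out 1 library gave, in agrin against control, -0.037 to 0.034 for Vdac1, -0.011 to 0.10 for Vdac3 and -2.79 to 0.040 for Vdac3-ps1. In bivalent 13-3B5 against control it gave -0.053 to 0.037 for Vdac2 and -0.019 to 0.091 for Vdac3. Against agrin it gave -0.017 to 0.043 for Vdac1 and -0.0032 to 0.059 for Vdac2 with 13-3B5xb12, and -0.028 to 0.082 for Vdac3 and -1.96 to 0.33 for Vdac3-ps1 with 11-3F6xb12. Leaving out 1 replicate number gave -0.52 to 1.10 for Vdac3-ps1 between replicate numbers, the lowest without number 2. Without the 3 libraries, Vdac2 and Vdac3 in bivalent 13-3B5 against control were -0.054 and -0.019, Vdac3 in 11-3F6xb12 against agrin was -0.028 and Vdac3-ps1 between replicate numbers was -0.12. The correlation of Vdac2 and Vdac3 fell to r = 0.242 without the 3 libraries.

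The gap of Vdac3-ps1 ranked 1 with library totals alone and 62 with a prior count of 0.5, and the upper range held 8 libraries under these and under DESeq2 size factors. At these depths 1 count of Vdac3-ps1 in the lower range is a large step, so its order among those 12 libraries carries counting error of several counts. The biological replicates are cultures of 1 line, and p-values measure the spread between them only.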
